A study of Homo sapiens with 9 samples.

Results

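The region described here is the end of the long arm of human chromosome 5, from CD74 to the last listed gene. Its members are the genes listed on chromosome 5 alone, with a start above 150.4 Mb (GRCh38) and at least 10 counts summed over 9 RNA-seq libraries. There are 231 members of 56505 listed genes, and 171 of them had enough counts to be tested, as had 16921 genes in all. The first member, CD74, starts at position 150401637, and the last, AC138035.2, starts at position 181306502. The bound was set with the expression changes of both clones in view. Every comparison of members below is therefore a description, and no p-value is given for a member.

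The libraries came from MDA-MB-231-D3H2LN, a human mammary tumour line derived from MDA-MB-231. The 3 groups, of 3 libraries each, were the wild-type cells, which express JAG1, and JAG1 knockout clones 1 and 2. Cas9 protein was transfected together with guide RNAs against 2 places in one exon of JAG1, and each clone grew from a single cell and was reported homozygous. The culture medium of every group was high-glucose DMEM containing 10% FBS. Each clone is 1 line, so clone 1 and clone 2 stand for themselves. The label for a wild-type library names no cloning step or mock transfection.

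Genes that neighbour each other on a chromosome arm mostly serve unrelated functions. What they share is their place: the local chromatin, the domain in which they replicate, and the fate of the chromosome that carries them. Distal 5q holds genes of several systems, among them the matrix protein SPARC, the nucleolar protein NPM1, translation factors such as LARP1, and a cluster of butyrophilin and TRIM genes near the telomere. RNA counts do not measure DNA, and the copy number of the region was not measured here.

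The 6 promoters shown are those of the member with the largest change (SPARC), of 4 members that lay lower in clone 1 and higher in clone 2, and of 1 member that was higher in clone 1 (BTNL9). They are the 250 bases before the gene's start in RefSeq (GRCh38.p14), written 5′ to 3′ on the gene's own strand, and RARS is listed there as RARS1. The gene bounds used for counting can differ from RefSeq. By those bounds the SPARC window lies inside the gene, and the windows of RARS and BTNL9 run into it. For 131 of 151 members checked, a short stretch just after the RefSeq start occurred, on the same strand, somewhere in a transcript of the gene. That checks the strand and not the start itself. Capitals mark a match to any of 3 motifs, searched on both strands, so that the reverse complement also counts. The first motif was the TATA box core TATAAA. The second was the CCAAT box. The third was GGGCGG, a core bound by factors of the Sp family, and on the opposite strand it appears as CCGCCC. The motifs do not overlap one another in these windows.
SPARC (chr5:151686916-151687165, minus strand): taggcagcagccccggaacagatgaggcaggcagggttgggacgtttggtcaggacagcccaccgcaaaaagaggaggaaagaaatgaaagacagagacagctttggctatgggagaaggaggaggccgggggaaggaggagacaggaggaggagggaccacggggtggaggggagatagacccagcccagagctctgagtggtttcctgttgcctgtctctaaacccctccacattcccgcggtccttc
GEMIN5 (chr5:154938212-154938461, minus strand): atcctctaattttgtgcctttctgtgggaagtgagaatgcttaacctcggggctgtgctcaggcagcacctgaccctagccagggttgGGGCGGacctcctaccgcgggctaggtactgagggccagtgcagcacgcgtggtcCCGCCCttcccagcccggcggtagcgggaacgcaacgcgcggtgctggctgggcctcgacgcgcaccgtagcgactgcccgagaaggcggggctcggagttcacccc
WWC1 (chr5:168291395-168291644, plus strand): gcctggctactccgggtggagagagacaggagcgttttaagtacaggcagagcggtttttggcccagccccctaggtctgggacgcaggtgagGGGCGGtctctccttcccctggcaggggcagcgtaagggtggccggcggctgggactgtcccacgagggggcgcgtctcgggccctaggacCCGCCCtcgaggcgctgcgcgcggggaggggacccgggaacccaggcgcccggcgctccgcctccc
RARS (chr5:168486221-168486470, plus strand): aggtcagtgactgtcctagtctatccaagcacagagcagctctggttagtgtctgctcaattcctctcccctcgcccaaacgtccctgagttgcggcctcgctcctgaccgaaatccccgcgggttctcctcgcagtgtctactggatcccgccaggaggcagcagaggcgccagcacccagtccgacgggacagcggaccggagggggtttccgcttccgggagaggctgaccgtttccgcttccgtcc
GPRIN1 (chr5:176610157-176610406, minus strand): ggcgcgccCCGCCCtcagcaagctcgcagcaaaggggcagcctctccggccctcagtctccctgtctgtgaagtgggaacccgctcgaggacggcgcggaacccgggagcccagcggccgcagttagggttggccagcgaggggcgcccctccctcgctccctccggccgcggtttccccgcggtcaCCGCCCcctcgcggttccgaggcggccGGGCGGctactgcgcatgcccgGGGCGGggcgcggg
BTNL9 (chr5:181040016-181040265, plus strand): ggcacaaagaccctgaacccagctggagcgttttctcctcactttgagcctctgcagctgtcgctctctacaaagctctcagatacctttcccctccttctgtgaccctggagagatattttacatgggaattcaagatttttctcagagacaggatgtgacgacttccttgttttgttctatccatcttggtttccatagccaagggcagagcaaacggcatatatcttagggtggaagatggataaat

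All the capitals in these sequences are GGGCGG or its reverse, with 4 matches in GPRIN1, 2 in GEMIN5 and 2 in WWC1. None of the 3 motifs was found in the windows of SPARC, RARS and BTNL9. The CG dinucleotide occurred 33 times in the GPRIN1 window and 4 times in that of BTNL9. A promoter was found for 152 of the 231 members, 216 windows in all since some genes have several starts. GGGCGG was present in 60.2% of these windows and in 42.6% of all 35116 windows of the table. For CCAAT the shares were 31% and 32%, and for TATAAA 3.24% and 10.7%. The median number of CG dinucleotides was 19 in the members' windows and 11 in all windows. Members needed at least 10 counts, while the windows of the table were not limited to genes counted in these cells. The differences are therefore not read as a trait of the region. A match is a property of these letters only, and a window without one says nothing of the factor that binds it.

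JAG1, the targeted gene, had 5069, 3803 and 3592 counts in wild-type replicates 1, 2 and 3, 2130, 1699 and 1657 in clone 1 and 1230, 1406 and 1190 in clone 2, fewer in every clone library than in any wild-type library. The libraries held 16890890 to 22456164 counts each. VIM, CD44, KRT8 and KRT18 were detected at a mean of at least 137 CPM in every group, while ESR1, PGR and CDH1 stayed at or below 0.739 CPM. ERBB2 lay between 81.2 and 94.8 CPM. CD3E had 0 counts in all 9 libraries, PTPRC reached 0.339 CPM and VWF 0.143 CPM. The endothelial marker PECAM1 had means of 2.29 to 4.42 CPM. Of the fibroblast markers, COL1A1 had 25.6 CPM in the wild type and 15.5 and 15.0 in the clones, and PDGFRB 5.33, 3.40 and 3.04. The mitochondrial share of counts was 1.80 to 3.95% in the wild type, 2.48 to 5.30% in clone 1 and 0.950 to 1.94% in clone 2. Its part in the results below was not tested. Nothing in the labels says that the replicates were separate cultures, so the spread between them may be technical.

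**Figure D1:**
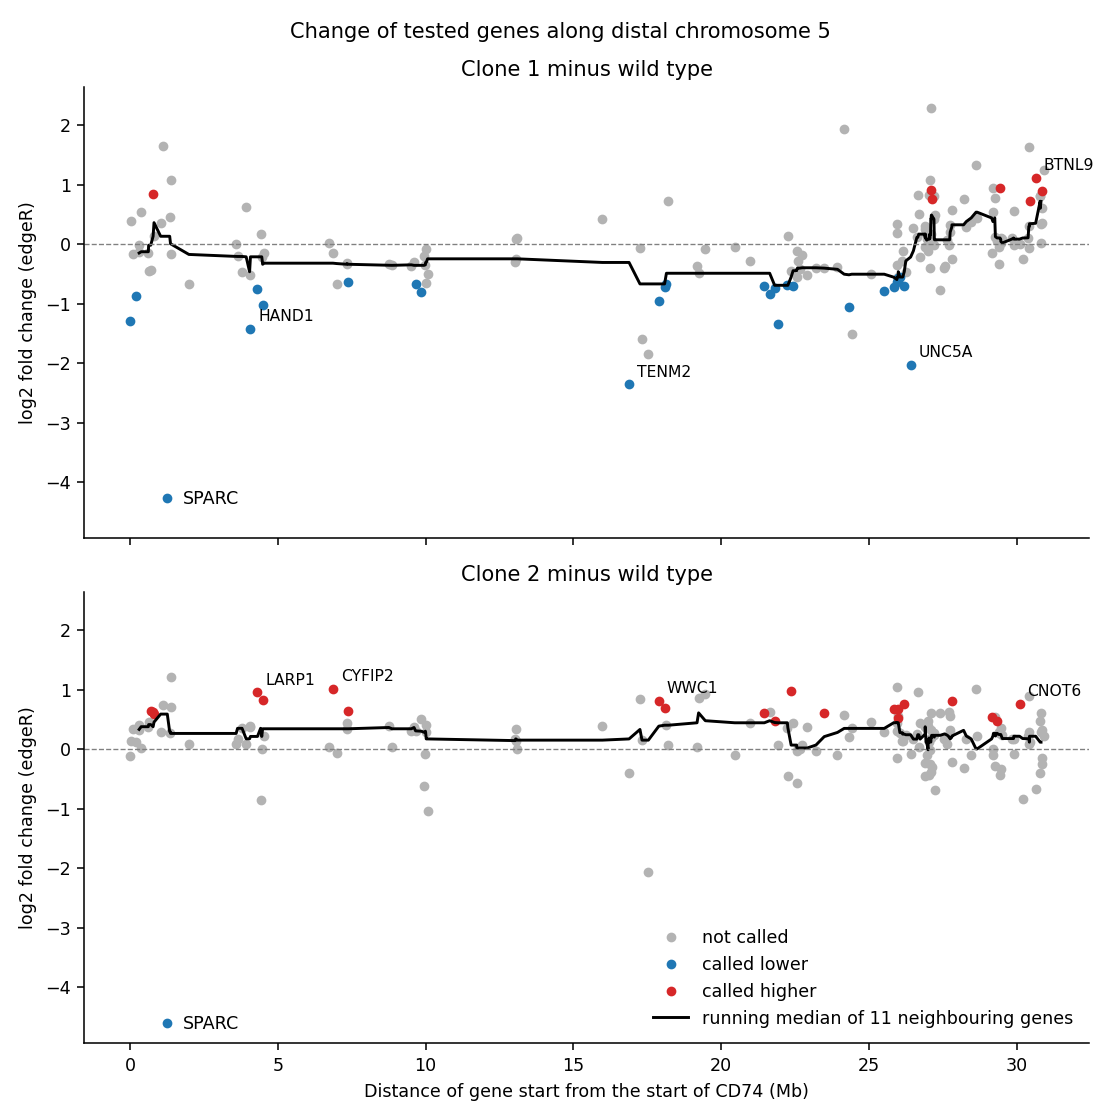
Log2 change of each tested gene against wild type (vertical axis), by distance of its start from that of CD74 in megabases (horizontal axis), for clone 1 and clone 2. Each point is 1 gene, blue where called lower, red where called higher and grey otherwise, and the line is the running median of 11 neighbouring genes; in clone 1 the line falls to −0.69 and ends above 0, and in clone 2 it lies above 0 in 160 of 161 windows.

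Across the region, lower calls outnumbered higher ones in clone 1, and higher calls outnumbered lower ones in clone 2. Clone 1 had 28 members called lower and 7 called higher than the wild type, and clone 2 had 1 called lower and 21 called higher. A call is an adjusted p under 0.05 in edgeR's quasi-likelihood test, adjusted by Benjamini-Hochberg over all 16921 genes. Over all tested genes, 4.1% were called lower and 1.41% higher in clone 1 (5.51% either way), and 2.75% lower and 3.21% higher in clone 2 (5.96% either way). In clone 1, 50 members had all 3 libraries below and 28 had all 3 above every wild-type library, beside 16.5% and 13.1% of all genes. In clone 2, 5 lay below and 59 above, beside 11.7% and 14.2%. The members were chosen on these contrasts, and nothing is read from their counts. Both comparisons share the 3 wild-type libraries. In bulk RNA, fewer cells with a transcript and less of it per cell cannot be told apart.

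Set directly against each other, the clones differed more widely, and this contrast uses no wild-type library as control. In clone 2, 68 members were called higher than in clone 1 and 11 were called lower, beside 19.8% and 14.1% of all tested genes, or 33.9% either way. The median difference over the members was 0.34 on the log2 scale, and −0.01 over all genes. The 11 lower calls became 7 without clone 1 replicate 3 or without clone 2 replicate 3.

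The median log2 change of the 171 tested members was −0.11 in clone 1 and 0.27 in clone 2. The same medians over all tested genes were −0.02 and 0.00. Leaving out wild-type replicate 3 gave −0.03 in clone 1, and leaving out wild-type replicate 2 gave −0.07. In clone 1, 74 members lay above 0 and 97 below, while in clone 2, 132 lay above 0. By level, medians over all genes with a mean of at least 10 CPM were −0.08 and 0.10, and those of the 120 members at that level −0.18 and 0.30. Among protein-coding genes the medians were −0.07 and 0.04 over all 13433 and −0.17 and 0.28 over the 135 members. The median GC content of members was 51.4%, against 49.2% over all tested genes. With a trend in GC content and gene length taken out of each library, which 147 members allowed, 26 members were called lower and 9 higher in clone 1, and 1 lower and 21 higher in clone 2. Over all genes the same correction gave 536 lower and 341 higher calls in clone 1, and 526 lower and 563 higher in clone 2.

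The number of calls changed with single libraries. The 28 lower calls of clone 1 fell to 18 without wild-type replicate 2, 9 without wild-type replicate 3, 15 without clone 1 replicate 1, 13 without clone 1 replicate 2 and 7 without clone 1 replicate 3. The 7 higher calls fell to 4 without wild-type replicate 2 or clone 1 replicate 2, and to 1 without wild-type replicate 3, clone 1 replicate 1 or clone 1 replicate 3. The 21 higher calls of clone 2 fell to 2 without wild-type replicate 1, 1 without wild-type replicate 2 and 3 without clone 2 replicate 3. They numbered 38 with the replicate number as a block and 8 when only the 6 libraries compared were fitted. Calls over all genes moved too. Lower calls in clone 1 went from 694 over all genes to 303, 211, 287, 237 and 159 in the same 5 left-out fits, and higher calls from 239 to 133, 67, 96, 93 and 41. Higher calls in clone 2 went from 543 to 83, 62 and 75 in the 3 left-out fits, to 1528 with the block and to 160 in the fit of 6 libraries.

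Few single calls stood in all 9 fits that each left out 1 library. In clone 1 these were 5 of the 28 lower calls (SPARC, TENM2, UBTD2, SH3PXD2B and MSX2) and 1 of the 7 higher calls (CCDC69). In clone 2 they were SPARC and 1 of the 21 higher calls, LARP1. In the fit of the 6 libraries compared, 13 of the 21 higher calls of clone 2 were lost: ANXA6, CCDC69, GM2A, CYFIP2, CLINT1, WWC1, RARS, FBXW11, UBTD2, SIMC1, CLTB, RUFY1 and MAML1. The one clone 1 call lost there was PWWP2A. Calls of single members below are those of the fit of all 9 libraries.

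Values of single libraries describe the same members, which were chosen on these contrasts, and do not test a shift. The median log2 ratio of the members to the wild-type mean, minus that of all genes, was 0.29, 0.18 and 0.22 in clone 2 replicates 1, 2 and 3. It was −0.04, −0.03 and −0.11 in clone 1, and 0.01, −0.02 and 0.03 in the wild type. Wild-type values lie near 0 by construction, since the ratio is to their own mean. All 3 clone 2 libraries lay above the rest, and the 3 clone 1 libraries lay below the wild type, replicate 2 by a narrow margin. As a share of all counts, all 553 genes listed in the region, members or not, took 1.60, 1.46 and 1.60% in the wild type. They took 1.60, 1.55 and 1.49% in clone 1 and 1.94, 1.75 and 1.77% in clone 2. By this sum clone 1 overlapped the wild type, and clone 2 lay above both.

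**Figure D2:**
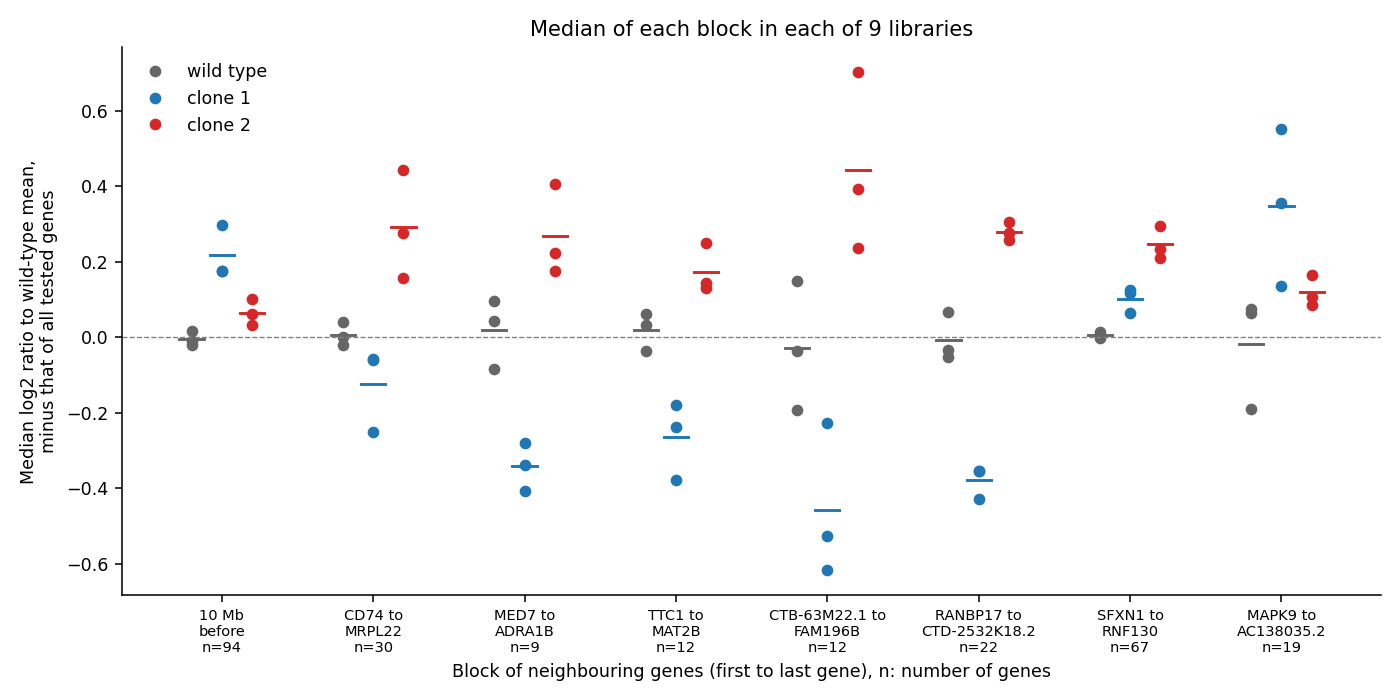
Median log2 ratio to the wild-type mean, minus that of all tested genes (vertical axis), for blocks of neighbouring genes from the last 10 Mb before the start bound to the telomere (horizontal axis). Points are single libraries and bars are group means; in the first 5 blocks from CD74 on every clone 1 library lies below every wild-type library, and in the last block every clone 1 library lies above them.

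Clone 1 did not change evenly along the region, and its direction turned towards the telomere. The members were divided by gene start into 5 Mb blocks, the first and last shorter. Beside the clone 1 calls of a block stand 16.4% lower and 4.09% higher over all tested members. Over all tested genes the shares were 4.1% and 1.41%. The first 30 tested members, from CD74 to MRPL22, had a clone 1 median of −0.16, with 6 called lower and 1 higher. From MED7 to ADRA1B (9 genes) the median was −0.34, and from TTC1 to MAT2B (12 genes) it was −0.31. All 3 of these medians lay below 0, and the next lay lower still. The lowest block median was −0.58, over the 12 genes after MAT2B up to FAM196B, of which 4 were called lower. In the next block, 22 genes from RANBP17 on, the median was −0.44, 20 genes lay below 0 and 7 were called lower. Nearer the telomere the medians turned positive. The 67 genes from SFXN1 to RNF130 had a median of 0.08, with 8 called lower and 3 higher. The last 19 genes, from MAPK9 on, had a median of 0.35, with 3 called higher and 0 lower.

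The first of the 28 lower calls of clone 1 along the region was CD74, and the last was UNC5A, whose start is at 176810477. The UNC5A call stood in 6 of 9 fits without 1 library. The members were split at UNC5A, a point chosen after the values were seen, so that no lower call could follow it. The 101 tested members up to UNC5A had a clone 1 median of −0.37 and 81 of them lay below 0. The 70 members after it, from UIMC1 on, had a median of 0.26 and 16 lay below 0. Only CCDC69 was called higher before the split, and the other 6 higher calls came after it. The longest run of neighbours below 0 held 18 tested genes, from CYFIP2 to NUDCD2, and the longest run above 0 held the last 11, from LINC00847 to AC138035.2. A running median over 11 neighbours was lowest around UBTD2, at −0.69 for the window from FAM196B to ERGIC1.

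In clone 2 every block median lay above 0. The block medians were 0.33, 0.34, 0.23, 0.39, 0.28, 0.25 and 0.18, in order from CD74 to the telomere. The running median of 11 genes lay above 0 in 160 of 161 windows and was highest around DOCK2, at 0.61 for the window from WWC1 to STK10. Up to UNC5A the clone 2 median was 0.32, with 17 called higher and 1 lower, and after it 0.21, with 4 called higher and 0 lower. The difference between clones was widest in the block that ends with FAM196B, where the clone 1 median was lowest and the clone 2 median highest. In order from CD74 to the telomere, the block medians of this difference were 0.44, 0.68, 0.42, 1.04, 0.81, 0.21 and −0.34. Of the 11 members called lower in clone 2 than in clone 1, 10 lay after UNC5A.

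The library medians of some single blocks are given next. They describe members chosen on these contrasts and do not test the shifts. In the block that ends with FAM196B, clone 1 replicates 1, 2 and 3 stood at −0.62, −0.23 and −0.53, the wild type at −0.04, −0.19 and 0.15, and clone 2 at 0.70, 0.24 and 0.39. The groups did not overlap, but clone 1 replicate 2 and wild-type replicate 2 were close. In the block from RANBP17 on the gaps were wider, with −0.35, −0.35 and −0.43 in clone 1, −0.03, −0.05 and 0.07 in the wild type and 0.31, 0.26 and 0.28 in clone 2. From MAPK9 on, clone 1 stood at 0.14, 0.35 and 0.55, above the wild type at 0.06, 0.07 and −0.19, and clone 2 at 0.11, 0.08 and 0.17. There, clone 1 replicate 1 and wild-type replicate 2 were close.

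**Figure D3:**
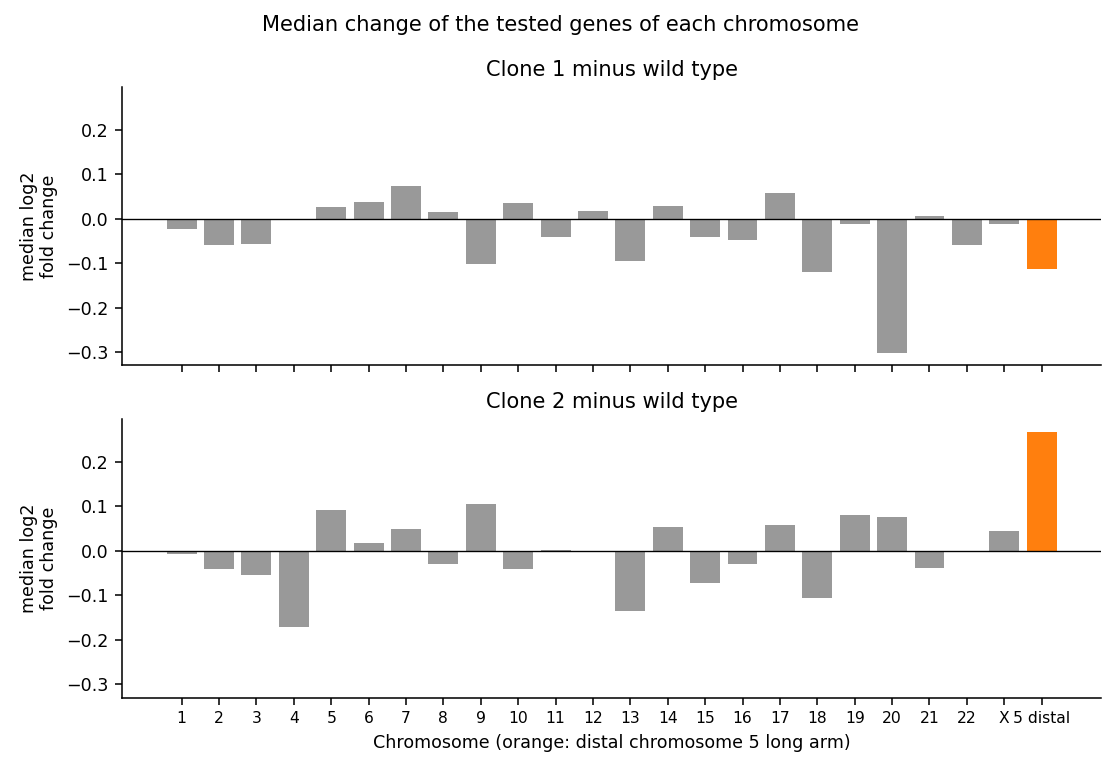
Median log2 change of tested genes against wild type (vertical axis) by chromosome, with the members shown beside them (horizontal axis), for clone 1 and clone 2. In clone 2 the members, at 0.27, lie above all 23 chromosomes, and in clone 1 chromosome 20, at −0.30, lies lowest. The members were chosen on these contrasts and the chromosomes were not.

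Pooled, the 600 tested genes of chromosome 5 before the bound had a median of 0.04 in clone 1 and 0.03 in clone 2, with 12 called higher and 8 lower in clone 1 and 25 higher and 21 lower in clone 2. The short arm (144 genes) had medians of 0.03 and 0.05, and the long arm before the bound (456 genes) 0.07 and 0.03. In the 10 Mb just before the bound (94 genes) clone 1 had a median of 0.21, with 5 called higher and 0 lower, and clone 2 one of 0.06. In 10 Mb blocks of the chromosome before 150 Mb, clone 2 medians ran from −0.14 to 0.24, except between 20 and 30 Mb, where 5 tested genes had a median of −3.41 and 3 were called lower. Clone 1 medians of the same blocks ran from −0.05 to 0.33. Whole chromosomes, chromosome 5 with the members included, ran from −0.30 (chromosome 20) to 0.07 (chromosome 7) in clone 1. The members' median of −0.11 was below that of 21 of 23 chromosomes. In clone 2 the chromosomes ran from −0.17 (chromosome 4) to 0.10 (chromosome 9), all below the members' 0.27. The members were chosen on these contrasts and the chromosomes were not, and no stretches of like size elsewhere were compared. Nothing is therefore read from these ranks.

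Genes at the start bound had mixed values on both sides of it. The last 5 tested genes outside it had log2 changes, in clone 1 and clone 2, of 0.36 and 0.14 for HMGXB3, 0.69 and 0.18 for CSF1R, 0.19 and 0.41 for RPL7P1, −0.65 and −0.81 for PDGFRB, and −0.27 and 0.74 for TCOF1. Of these, TCOF1, which encodes a nucleolar factor of ribosome synthesis, was called higher in clone 2. The first 5 inside had −1.29 and −0.11 for CD74, 0.39 and 0.14 for RPS14, −0.17 and 0.33 for NDST1, −0.88 and 0.13 for SYNPO, and −0.02 and 0.41 for RBM22.

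Levels of members in the wild type spread widely. Of the 231 members, 33 had a wild-type mean of at least 100 CPM, 120 had at least 10 CPM and 82 were below 1 CPM. Per kilobase of listed gene length, NPM1 was highest with 471 CPM per kb. CANX, an endoplasmic reticulum chaperone, had 296, the ribosomal protein RPS14 291, the ribosomal scaffold RACK1 191, the proton pump subunit ATP6V0E1 119 and HNRNPAB, an RNA-binding protein, 109. NPM1, RPS14 and RACK1 have near-identical copies elsewhere in the genome, between which their reads could be split. Of these 6, only HNRNPAB was called in a clone against the wild type.

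Matrix and adhesion genes held the largest change of the region. SPARC, a secreted glycoprotein that binds collagen, had 136, 74.8 and 76.8 CPM in wild-type replicates 1, 2 and 3, 6.73, 4.04 and 4.07 in clone 1 and 4.82, 3.97 and 3.13 in clone 2. All 6 clone libraries lay below the lowest wild-type library, and the clones overlapped each other. The log2 change was −4.27 ± 0.28 (SE) in clone 1 and −4.60 ± 0.28 in clone 2, and SPARC was called lower in both in 9 of 9 fits that each left out 1 library. It was the only member called lower in clone 2.

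TENM2, a teneurin of cell-cell adhesion, was called lower in clone 1 and not in clone 2. It had 20.6, 19.6 and 20.3 CPM in the wild type, 4.20, 4.85 and 2.73 in clone 1 and 21.1, 12.2 and 13 in clone 2, so clone 1 lay apart and clone 2 overlapped the wild type. Some little-counted non-coding genes overlap it. Its log2 change was −2.36 ± 0.25 in clone 1 and −0.39 ± 0.23 in clone 2, and clone 2 exceeded clone 1 by 1.96. SH3PXD2B, a scaffold of podosomes, had 21, 33.8 and 31.5 CPM in the wild type, 12, 9.03 and 13 in clone 1 and 22.5, 29.2 and 38.8 in clone 2, with changes of −1.34 ± 0.23 and 0.07 ± 0.22. SYNPO, an actin-associated protein, fell in clone 1, with a log2 change of −0.88 ± 0.22, and stood at 0.13 ± 0.21 in clone 2, and its clone 1 call stood in 4 of 9 fits without 1 library and was lost with the GC correction. These 4 were the lower calls of clone 1 among 13 tested matrix and adhesion members of 17 listed, whose clone 1 median was −0.40 with 0 called higher. In clone 2 the group's median was 0.13, and CYFIP2 and ANXA6 were called higher. Lower calls in clone 1 made up 30.8% of the group and higher calls in clone 2 15.4%, beside 16.4% and 12.3% of all tested members.

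ANXA6, a calcium-dependent membrane-binding annexin, had 198, 248 and 271 CPM in the wild type, 183, 192 and 152 in clone 1 and 372, 344 and 403 in clone 2. The clone 2 libraries lay above all others, and the log2 change there was 0.64 ± 0.16, called in 6 of 9 fits without 1 library. CYFIP2, a subunit of the WAVE actin regulatory complex, had 9.28, 14.5 and 14.7 CPM in the wild type, 9.89, 12.2 and 12.5 in clone 1 and 15.8, 26.7 and 35.2 in clone 2. Its changes were −0.15 ± 0.26 and 1.02 ± 0.25, with the clone 2 call in 4 of 9 such fits, and it overlaps ADAM19 on the other strand, so their reads cannot be told apart here. ADAM19, a membrane protease, had log2 values of −0.68 ± 0.39 and −0.07 ± 0.39 and was called in neither clone.

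**Figure D4:**
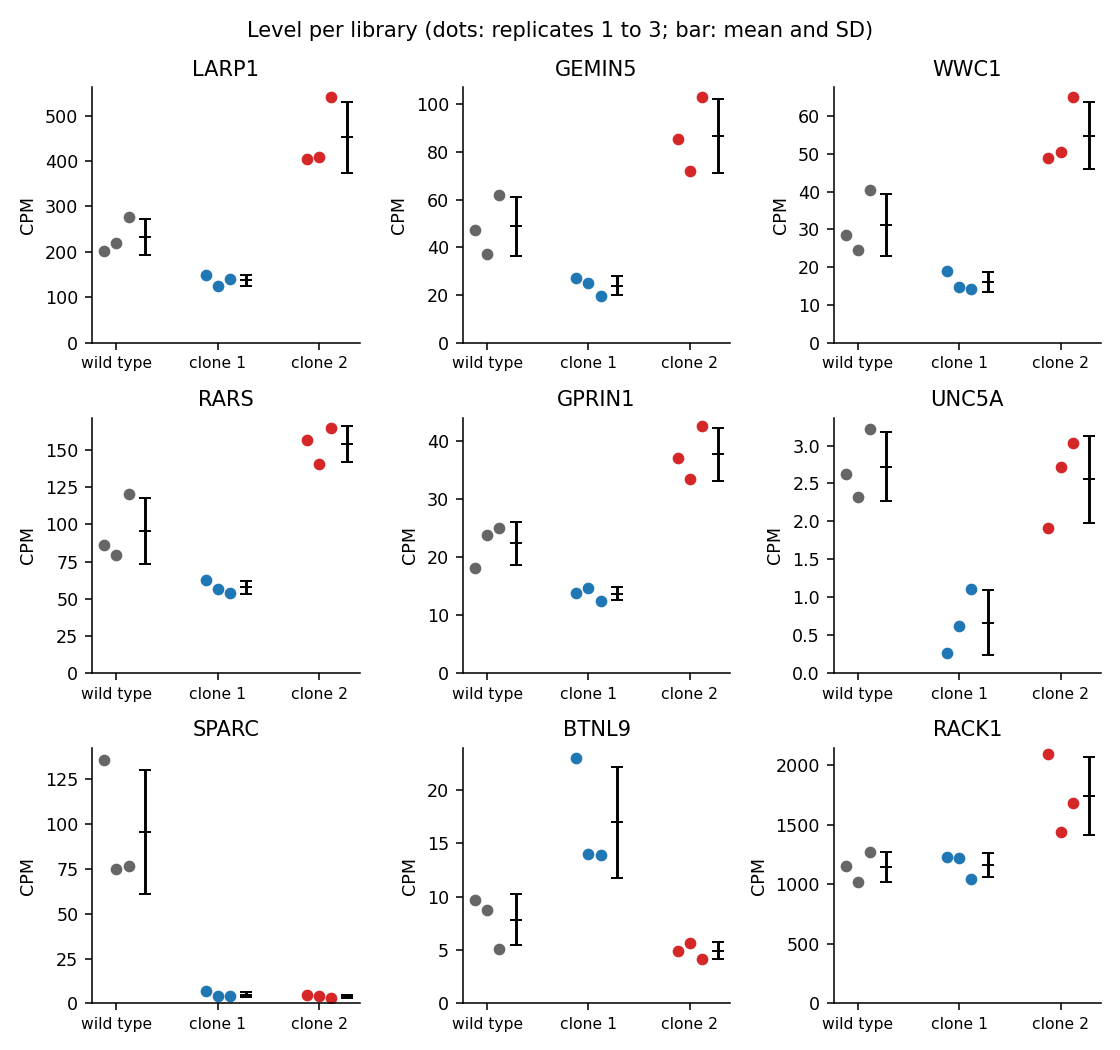
CPM per library (vertical axis, from 0, one panel per gene) in the wild type, clone 1 and clone 2 (horizontal axis) for 9 named members. Dots are replicates 1 to 3 from left to right and bars give the mean and SD; SPARC lies low in all 6 clone libraries, LARP1, GEMIN5, WWC1, RARS and GPRIN1 lie below the wild type in clone 1 and above it in clone 2, and BTNL9 is highest in clone 1.

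Genes of RNA handling and translation mostly lay above 0 in clone 2, as did the members as a whole. Of 26 listed, 23 were tested, and 21 of these (91.3%) lay above 0 in clone 2, with a median of 0.44. The share was 77.2% over all tested members and 85% over those with a mean of at least 10 CPM. Over all tested genes at that level it was 61.1%. Among transcription and chromatin genes, 13 of 14 lay above 0. Called higher in clone 2 among the RNA and translation genes were LARP1, GEMIN5, CNOT6, RARS, HNRNPAB and CPEB4, and 0 were called lower. In clone 1 the median was −0.21, and LARP1, GEMIN5, RARS and THOC3 were called lower, with 0 higher. Lower calls in clone 1 made up 17.4% of the group and higher calls in clone 2 26.1%, beside 16.4% and 12.3% of all tested members.

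LARP1, an RNA-binding protein that controls translation of ribosomal protein mRNAs, had 202, 219.6 and 277 CPM in the wild type, 149, 125 and 139.7 in clone 1 and 404, 409.7 and 541 in clone 2. The 3 groups did not overlap. Its log2 change was −0.76 ± 0.17 in clone 1 and 0.96 ± 0.17 in clone 2, and clone 2 exceeded clone 1 by 1.72 ± 0.17. The clone 2 call stood in 9 of 9 fits without 1 library, and the clone 1 call in 6.

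GEMIN5, the snRNA-binding subunit of the SMN complex, had 47.4, 37 and 61.9 CPM in the wild type, 27.2, 25.1 and 19.5 in clone 1 and 85.4, 71.8 and 103 in clone 2. Again the groups did not overlap, with changes of −1.03 ± 0.19 and 0.83 ± 0.19. RARS, the arginyl-tRNA synthetase, had 85.9, 79.3 and 121 CPM in the wild type, 62.5, 56.7 and 53.7 in clone 1 and 157, 141 and 164.6 in clone 2. It changed by −0.73 ± 0.16 and 0.69 ± 0.16. Of 9 fits without 1 library, GEMIN5 was called in 8 in clone 1 and 6 in clone 2, and RARS in 6 in each. Of the promoter windows printed above, that of GEMIN5 holds 2 matches to GGGCGG and that of RARS holds 0.

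HNRNPAB stood at −0.25 ± 0.17 in clone 1 and was not called there. In clone 2 it had 442, 353 and 427 CPM against 222, 199 and 277 in the wild type, a change of 0.81 ± 0.17. It overlaps PHYKPL, a far less counted gene on the other strand. CNOT6, a deadenylase of the CCR4-NOT complex, stood at 0.00 ± 0.15 in clone 1, which was not called, and rose by 0.77 ± 0.15 in clone 2. Its 89.9, 82.7 and 93.4 CPM in clone 2 lay above the 45, 47.7 and 63.6 of the wild type and the 52.7, 50.9 and 53.2 of clone 1, which overlapped.

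The 3 members of this group with the highest level per kilobase were not called against the wild type. NPM1, with a wild-type mean of 1804 CPM, stood at −0.29 ± 0.20 in clone 1 and 0.44 ± 0.21 in clone 2. RACK1 stood at 0.02 ± 0.19 and 0.60 ± 0.19, and RPS14 at 0.39 ± 0.23 and 0.14 ± 0.23. NPM1 and RACK1 were called higher in clone 2 than in clone 1, by 0.74 and 0.58. The NPM1 call was lost without clone 1 replicate 3. The RACK1 call stood in 5 of 9 fits without 1 library and was lost with the GC correction.

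Signalling genes gave 4 lower calls and 1 higher call in clone 1 and 3 higher calls in clone 2, among 16 tested of 20 listed. Their medians were −0.41 and 0.37. Lower calls in clone 1 made up 25% of the group, beside 16.4% of all tested members. Higher calls in clone 2 made up 18.8%, beside 12.3%. WWC1, which encodes the Hippo pathway protein KIBRA, had 28.6, 24.5 and 40.5 CPM in the wild type, 19.1, 14.7 and 14.3 in clone 1 and 49, 50.6 and 65.1 in clone 2. No library of one group reached into another, and the changes were −0.96 ± 0.20 and 0.82 ± 0.19. Each of these calls stood in 6 of 9 fits without 1 library. FBXW11, an F-box subunit of SCF ubiquitin ligases, had 53.4, 60.8 and 83 CPM in the wild type, 35.4, 48 and 37.3 in clone 1 and 88.9, 99.5 and 113 in clone 2, with changes of −0.71 ± 0.18 and 0.61 ± 0.17. Its clone 2 call stood in 2 of 9 fits without 1 library and was lost with RLE size factors.

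STK10, a serine/threonine kinase that phosphorylates ERM membrane linker proteins, had 66.8, 107 and 102 CPM in the wild type and 44.6, 54.5 and 54.5 in clone 1, a change of −0.84 ± 0.19. In clone 2 it had 113, 146 and 165.2 CPM, a change of 0.62 ± 0.18 that was not called. The clone 1 call of STK10 stood in 4 of 9 fits without 1 library. UNC5A, a netrin receptor, was low throughout, with 2.62, 2.33 and 3.22 CPM in the wild type and 0.259, 0.618 and 1.11 in clone 1, a change of −2.04 ± 0.47. DUSP1, a phosphatase that inactivates MAP kinases, was called higher in clone 2, with a change of 0.98 ± 0.22, from 8.26, 10.2 and 11.9 CPM in the wild type to 17.6, 17.3 and 25.1. Its value in clone 1 was −0.45 ± 0.22 and was not called.

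DOK3, an adaptor of immune receptor signalling, went the other way in clone 1. It had 35.4, 28.2 and 20.7 CPM in the wild type, 65.7, 42.4 and 51.1 in clone 1 and 21.3, 26.8 and 16.2 in clone 2, with changes of 0.91 ± 0.22 and −0.39 ± 0.22. MAML1, a coactivator of Notch target transcription and so a gene of the pathway of JAG1, rose by 0.48 ± 0.13 in clone 2. It had 71.5, 73.1 and 81 CPM in the wild type, 82.3, 70.9 and 79.2 in clone 1 and 104, 95.1 and 115 in clone 2, so that clone 1 overlapped the wild type, with a change of 0.04 ± 0.13. The clone 2 call of MAML1 stood in 3 of 9 fits without 1 library. It was also lost with other size factors (RLE), without the filter on low counts, in the fit of the 6 libraries compared and with the GC correction. NEURL1B, a ubiquitin ligase of the Neuralized family that acts on Notch ligands and stands outside the role lists, had 25.6, 25.6 and 27.3 CPM in the wild type and 17.9, 15.8 and 14.8 in clone 1. It was called lower there (−0.69 ± 0.15) and stood at 0.36 ± 0.15 in clone 2, which was not called.

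The secretory and protein quality group had 4 lower calls in clone 1 and 4 higher calls in clone 2 among 20 tested of 20 listed, with 0 calls in the opposite directions. Its medians were −0.14 and 0.31, and 19 of 20 lay above 0 in clone 2. The calls made up 20% of the group in each clone, beside 16.4% lower in clone 1 and 12.3% higher in clone 2 over all tested members. Above 0 in clone 2 lay 95% of the group, 77.2% of all tested members and 85% of members with a mean of at least 10 CPM. CLINT1, a clathrin adaptor, had 74.5, 80.5 and 102 CPM in the wild type, 55.2, 52.8 and 57.6 in clone 1 and 113, 139.5 and 148 in clone 2. It changed by −0.64 ± 0.15 and 0.64 ± 0.15 and was called in both, in 4 (clone 1) and 5 (clone 2) of 9 fits without 1 library. CLTB, a clathrin light chain, changed by −0.57 ± 0.14 and 0.52 ± 0.14 and was also called in both, each in 4 of 9 such fits. ERGIC1 and FAF2 were called lower in clone 1, and RUFY1 and GM2A higher in clone 2.

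Transcription and chromatin genes had 3 lower calls and 1 higher call in clone 1 and 0 calls in clone 2, among 14 tested of 23 listed. Lower and higher calls in clone 1 made up 21.4% and 7.14% of the group, beside 16.4% and 4.09% of all tested members. MSX2, a homeobox factor, had 10.7, 14.3 and 13.8 CPM in the wild type, 5.28, 6.23 and 7.18 in clone 1 and 15.8, 14.3 and 14.9 in clone 2. It was called lower in clone 1, with a change of −1.05 ± 0.20, while its value in clone 2 was 0.21 ± 0.19. HAND1, a basic helix-loop-helix factor, was lowly counted, with 3.74, 4.95 and 5.48 CPM in the wild type and 1.45, 2.00 and 1.84 in clone 1, a change of −1.42 ± 0.31. PWWP2A was also called lower, in 2 of 9 fits without 1 library, and the zinc finger gene ZFP62 higher (0.72 ± 0.18).

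Metabolic and mitochondrial genes (11 tested of 14 listed) had medians of −0.05 and 0.29. PANK3, a pantothenate kinase, and HIGD2A, a respiratory chain assembly factor, were called lower in clone 1, and HIGD2A was called higher in clone 2 (−0.60 ± 0.15 and 0.67 ± 0.15). Cell cycle genes (8 tested of 9 listed) had medians of −0.28 and 0.16, with CCNJL called lower in clone 1 and 0 calls in clone 2. Lower calls in clone 1 made up 18.2% of the metabolic and 12.5% of the cell cycle group, beside 16.4% of all tested members. Higher calls in clone 2 made up 9.09% of the metabolic group, beside 12.3%. The mitotic genes HMMR (0.08 and 0.14) and PTTG1 (−0.08 and 0.28) were called in neither clone. No neuronal receptor or channel of the lists was tested.

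Immune genes of the region had 5 tested members of 14 listed, with medians of 0.82 in clone 1 and −0.15 in clone 2. CD74, the invariant chain of MHC class II, was called lower in clone 1. It had 44.2, 39.5 and 30.6 CPM in the wild type, 17.8, 17.4 and 11.6 in clone 1 and 53.6, 25.9 and 26.6 in clone 2, and its changes were −1.29 ± 0.27 and −0.11 ± 0.26. Clone 1 lay below all other libraries, while clone 2 overlapped the wild type and held, in replicate 1, the highest of the 9 values.

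Towards the telomere, BTNL9 and TRIM52 were called higher in clone 1. BTNL9, a butyrophilin-like gene, had 9.67, 8.76 and 5.13 CPM in the wild type, 23, 14 and 13.9 in clone 1 and 4.95, 5.71 and 4.13 in clone 2. Its changes were 1.11 ± 0.27 and −0.67 ± 0.27, and clone 2 lay below clone 1 with a difference of −1.78. TRIM52 had 13.2, 10.7 and 7.19 CPM in the wild type, 19.8, 18.6 and 19.5 in clone 1 and 9.59, 11.5 and 6.97 in clone 2, with changes of 0.90 ± 0.23 and −0.15 ± 0.23. Clone 1 lay apart from the other libraries in both genes.

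MRNIP, named for its interaction with the MRN DNA repair complex, had 25.8, 28.6 and 19.3 CPM in the wild type, 48.2, 40.4 and 52.9 in clone 1 and 17.4, 26.6 and 10.4 in clone 2. Its change in clone 1 was 0.94 ± 0.26, and it overlaps SQSTM1 and TBC1D9B, which had several times its counts. FAM193B rose by 0.75 ± 0.21 in clone 1 and stood at −0.31 ± 0.21 in clone 2, where it was not called. Of the 9 fits without 1 library, the clone 1 call stood in 2 for MRNIP, 3 for FAM193B and 4 for TRIM52. CCDC69 was called higher in both clones, with 29.5, 32 and 32.5 CPM in the wild type, 54.7, 61.6 and 51.7 in clone 1 and 57.8, 42.4 and 45 in clone 2. It changed by 0.84 ± 0.15 and 0.62 ± 0.15 and overlaps GM2A on the other strand.

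GPRIN1 and SIMC1 lay close together before UNC5A and outside the role lists. GPRIN1, an inducer of neurite outgrowth, had 18.2, 23.8 and 25.1 CPM in the wild type, 13.9, 14.6 and 12.5 in clone 1 and 37.1, 33.6 and 42.6 in clone 2. It changed by −0.71 ± 0.17 and 0.76 ± 0.16. SIMC1, a SUMO-binding protein, had 16.7, 16.8 and 22.9 CPM in the wild type, 12, 12 and 10.1 in clone 1 and 28.5, 27.1 and 33.7 in clone 2. It changed by −0.73 ± 0.18 and 0.67 ± 0.17, and both genes showed no overlap between groups. Their clone 1 calls each stood in 4 of 9 fits without 1 library. Their clone 2 calls stood in 6 for GPRIN1 and 5 for SIMC1.

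UBTD2, at the centre of the lowest window of clone 1, had 36.9, 38.1 and 45.8 CPM in the wild type, 24.2, 23.7 and 24.2 in clone 1 and 55, 54.9 and 58.3 in clone 2. It changed by −0.74 ± 0.14 and 0.48 ± 0.13 and was called in both, though in clone 2 in only 2 of 9 fits without 1 library. Several well-counted members elsewhere in the region were called in neither clone. MAT2B, a methionine adenosyltransferase subunit, stood at 0.10 ± 0.15 and 0.00 ± 0.15, the kinase MAPK9 at 0.10 ± 0.13 and 0.18 ± 0.13, and the glycosyltransferase MGAT1 at 0.10 ± 0.16 and 0.22 ± 0.16. The 60 tested members outside the role lists had medians of 0.09 in clone 1 and 0.17 in clone 2.

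Another 60 members did not pass the filter on low counts. Their totals over 9 libraries ran from 10 to 64, with a median of 24, and 20 were protein coding, among them SLIT3, EBF1, FGF18 and HAVCR2. Together they had 589 counts in the wild type, 597 in clone 1 and 421 in clone 2. The leukocyte signalling adaptor LCP2, named here after its counts were seen, had 7, 14 and 14 counts in the wild type, 0, 2 and 0 in clone 1 and 4, 0 and 4 in clone 2. Without the filter, 33 members were called lower and 10 higher in clone 1, and 1 lower and 25 higher in clone 2.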

How the data were processed

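RNA was measured in 9 libraries, 3 each of wild-type cells, clone 1 and clone 2, grouped by their titles. The values are raw gene counts as deposited by the authors, in 2 tables that share the wild-type columns (3 of 3 identical), which were used once. The submitters' processing notes name STAR, featureCounts, Subread, DESeq2 and the build GRCh38, without roles. Which annotation release and strand setting were used is not given in the sources used here; overlapping genes therefore cannot be separated. Gene types came from GENCODE 29 by symbol, and 51 of the 231 members had none.

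Counts were fitted with edgeR 4.0.16 in R 4.3.3: TMM, filterByExpr with a minimum count of 10, and a robust quasi-likelihood model with 3 groups over the 9 libraries (6 residual degrees of freedom, biological coefficient of variation 20.3%), with two-sided tests and Benjamini-Hochberg adjustment over 16921 genes. CPM use TMM-scaled library sizes. Library medians use log2 of CPM plus 0.5. The fit was tested on simulated data. Total counts of 16890890 to 22456164 set the precision, and replicates differed by more than sampling noise (chi-square per gene 17.4 to 61.9), so none was a duplicate.

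The members, role lists, naming rule and alternatives were chosen with earlier results of these data known. The rule named JAG1; 5 genes on each side of the start bound; per clone up to 8 called protein-coding members per direction with at least 5 CPM in the higher group and no overlap with the wild type; the 6 highest members per kilobase; up to 4 most counted members per role list; and up to 6 members called in opposite directions. Others in the text were named after their values were seen.

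Same-numbered libraries of wild type and clone 2 deviated together (correlations 0.223, 0.269 and 0.246), those of clone 1 with the wild type did not (0.245, 0.0825 and −0.0965), and nor did those of the clones (0.219, −0.0215 and 0.0124). The pairing of wild type and clone 2 comes from these values, as the labels do not say what a number marks. Alternatives were the replicate block, RLE size factors, no filter, DESeq2 1.42.0, a fit of the 6 libraries compared, a start bound at MED7, leaving out each library and, added after the data were seen, a GC and length correction and a centring on genes outside chromosome 5.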

Additional observations from a re-analysis of the deposited data

Results flagged for a closer look

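Of 11 members called lower in clone 1 and higher in clone 2, the 6 whose smaller change was largest are given here. Opposite calls were not counted over all tested genes, so nothing is read from the number 11. In each of them every clone 1 library lay below the wild-type mean and every clone 2 library above it. Both comparisons use the same wild-type libraries. The log2 changes in clone 1 and clone 2 were −1.03 and 0.83 for GEMIN5, −0.96 and 0.82 for WWC1, −0.76 and 0.96 for LARP1, −0.71 and 0.76 for GPRIN1, −0.73 and 0.69 for RARS, and −0.73 and 0.67 for SIMC1. The 6 were picked for these changes, so no test of the difference is given. Of their calls against the wild type, only that of LARP1 in clone 2 stood in all 9 fits that each left out 1 library. The direct differences, clone 2 minus clone 1, ran from 1.39 (SIMC1) to 1.86 (GEMIN5).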

How the results depend on the processing

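None of the 3 medians over the members changed sign under the alternatives run, and block, role and split medians were not recomputed. The all-gene medians, close to 0, did change sign, from −0.02 to 0.03 with DESeq2 in clone 1 and from 0.00 to −0.06 without the filter in clone 2. The members called higher in clone 1 (7) numbered 14 with the replicate block, 12 in the fit of the 6 libraries compared and 11 with DESeq2. Leaving out 1 library gave 1 to 9 higher and 7 to 30 lower in clone 1, 1 to 25 higher and 1 to 2 lower in clone 2, and 54 to 66 higher and 7 to 15 lower in clone 2 against clone 1. The medians then ran from −0.103 to −0.0312, from 0.23 to 0.29 and from 0.23 to 0.39. The clone 1 median was −0.0724 in the fit of 6 libraries and −0.0681 for members from MED7 on. In clone 2, 38 were called higher with the replicate block and 8 in the fit of 6 libraries, and 0 lower from MED7 on. Between the clones, 17 were called lower with the block. Same-numbered clone 1 and wild-type libraries did not all correlate, so the block there is only a number shared. Leaving out a library leaves 2 in its group and fewer residual degrees of freedom. The cause of the other shifts was not tested. Without the filter and with DESeq2, the all-gene median of clone 2 minus clone 1 moved to −0.14. With 3 libraries a group and 60 members under the filter, small changes and little-counted genes were not resolved.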
